A study of Danio rerio with 12 samples.

Results

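Chemokine ligands and chemokine receptors were followed in zebrafish hearts from 6 to 36 months of age. A gene was taken as a member when its name in the expression tables began, in upper or lower case, with ccl, cxcl, ccr, cxcr, xcr or ackr and a digit. This gave 78 of 50640 genes, of which 52 are ligands and 26 are receptors. A mean of at least 0.5 FPKM (fragments per kilobase of gene, scaled to the reads of the library) over all libraries was reached by 51 members, 36 ligands and 15 receptors. The other 27 members, 16 ligands and 11 receptors, lay under this minimum and were not tested. Just inside the minimum were ccl27a at 0.556 FPKM and ccr12b.1 at 0.540 FPKM, and just outside it were cxcr2 at 0.460 FPKM and cxcr5 at 0.429 FPKM. The samples were hearts of fish aged 6, 12, 24 and 36 months, kept under standard conditions, with 3 RNA-seq libraries of total RNA at each age. Age is the sole factor that the labels give. They state no genotype, strain, sex or treatment, nor whether a library is 1 heart or a pool, so the p-values measure the spread between these libraries only.

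Chemokines are small secreted proteins that bind G protein-coupled receptors on leukocytes and other cells and direct their movement along a gradient. Some, such as Cxcl12, are made continuously by tissue and guide cell migration in the embryo and the growth of vessels, and others, such as Cxcl8 and Cxcl11, are induced in inflammation and recruit neutrophils, macrophages or T cells. The atypical receptors (ackr) bind chemokines without G protein signalling and remove them from the tissue. Fish carry large families of CC and CXC ligands in tandem arrays, and for many of them no receptor is known.

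The libraries held 7333060 to 11145869 reads in genes, so that 1 read on a gene of 1 kilobase is worth 0.0878 to 0.136 FPKM. The tissue label was checked with 10 cardiomyocyte markers, whose summed level was 5058 to 11660 FPKM per library. At 6 months replicate 1 was unlike the other libraries of its age. Its Pearson correlation with them across the 20699 genes tested, on log2(FPKM + 1), was 0.907 and 0.916, against 0.952 between the other two. It was the highest of the 3 libraries of 6 months for 27 of 36 ligands (75%) and 7 of 15 receptors (46.7%), against 38.3% of all genes tested. For 24 members followed singly, the log2 difference at 36 against 6 months is therefore given with and without it. Genes were tested with limma on log2(FPKM + 1), p-values were adjusted over all 20699 genes, and a log2 difference is on this scale, which understates the change of low genes. It is the older age minus the younger, and is given ± SE. Mean levels are given ± SD with n = 3.

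A few genes made up most of the chemokine RNA. The 4 most abundant ligands, ccl34b.4, cxcl12a, cxcl18b and ccl35.1, held 52.1% of the summed ligand level, and the first 10 held 80% of it. The means of these 4 over the 12 libraries were 71.7, 38.3, 30.5 and 28.1 FPKM. Among receptors, cxcr4b at 77.7 FPKM and ackr4b at 63.1 FPKM held 66.1% of the summed level, and with ackr3b at 24.9 FPKM and ccr9a at 17.5 FPKM the share was 86.1%. At the other end, ccl34a.3, ccl32a.2 and ccr12a were listed at 0 in all 12 libraries, and another locus overlaps each on its strand.

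Ligands and receptors of known pairs were often at unlike levels. The receptor ccr9a, whose mammalian counterpart binds CCL25, was at 17.5 FPKM, with ccl25a at 0.0770 FPKM and ccl25b at 0.1403 FPKM. Both sides of another pair were under the minimum. The ligands of ccr7, the homing receptor of lymphocytes and dendritic cells in mammals, were at 0.188 FPKM for ccl19b and at most 0.0742 FPKM for the ccl19a genes, and ccr7 itself was at 0.356 FPKM. The ccl19a genes overlap each other on the same strand, and unnamed loci overlap them and ccl25b. These unnamed loci were listed at 0 in every library, and the part of shared reads in the low values was not tested. The neutrophil receptor cxcr2 was under the minimum while its ligands cxcl8a and cxcl18b averaged 2.59 and 30.5 FPKM. For ccl20b at 15.2 FPKM the receptor ccr6a averaged 1.48 FPKM and ccr6b 0.195 FPKM. The 16 ligands under the minimum had between 0 and 39 reads over all 12 libraries and the 11 receptors between 0 and 84. With no filter 75 members entered the fit, and over the 6 tests the sole call was that of ccl38a.4 in the linear trend. In those tests 0% to 2.26% of all genes passed. Among the receptors under the minimum ccr6b was picked after its values were seen. It measured 0.892, 0.325 and 0.420 FPKM at 36 months, against 0, 0 and 0.0941 FPKM at 24 months, with no overlap. Reads numbered 9, 4 and 5 against 0, 0 and 1, and 11.8% of all genes tested lay wholly higher in this comparison. At 12 months it measured 0, 0.166 and 0 FPKM, and at 6 months 0.0692, 0 and 0.378 FPKM. The 6-month values overlapped those of 36 months.

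Many ligands lie in arrays, and their reads are uncertain where copies are alike. With neighbours no more than 300 kb apart, 13 arrays held 45 members, 37 of them ligands. The largest, on chromosome 25 (12745435 to 12954454, GRCz11), holds 10 ligands of the ccl33, ccl39 and ccl35 groups and 8 of them reached the minimum. Within it ccl35.1 averaged 28.1 FPKM and ccl39.4 0.0298 FPKM, so neighbours in an array did not share a level. On the same strand, 9 of the 51 members tested overlap another annotated locus, as do 13 of the 27 members under the minimum. The treatment of reads that fit several loci is not given in the sources used here, and its part in low values was not tested. The name ccl39.3 is borne by a gene on chromosome 25 and one on chromosome 6, and cxcr3.1 by a pair of genes on chromosome 16. Values below are those of the first ccl39.3 and of the more abundant cxcr3.1 (11962450 to 11968407).

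Cxcl12 and its receptors formed the most abundant known ligand and receptor pair, and no gene of it passed the test at 36 against 6 months. Cxcl12 signals through Cxcr4, and zebrafish has a pair of genes for each. In zebrafish embryos cxcl12a and cxcr4b guide the lateral line primordium and germ cells, while ackr3b clears the ligand. The ligand cxcl12a measured 55.1, 23.3 and 29.5 FPKM at 6 months, 46.6, 46.5 and 46.0 FPKM at 12 months, 32.8, 26.5 and 19.1 FPKM at 24 months and 41.9, 36.3 and 55.5 FPKM at 36 months. All libraries of 36 months and all of 12 months lay above those of 24 months, and the 6-month libraries spanned nearly the whole range. Its log2 difference was 0.37 ± 0.29 for 36 against 6 months (adjusted p = 0.468) and 0.72 ± 0.23 without replicate 1 of 6 months (adjusted p = 0.0714).

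The second ligand gene, cxcl12b, measured 14.0, 14.7 and 13.6 FPKM at 6 months, 14.9, 11.7 and 23.0 FPKM at 12 months, 9.79, 2.85 and 11.04 FPKM at 24 months and 13.2, 14.1 and 31.9 FPKM at 36 months. The 24-month libraries were the lowest of all ages, and replicate 3 of 36 months was far above the rest. The log2 difference for 36 against 6 months was 0.34 ± 0.44 (adjusted p = 0.675), and 0.34 ± 0.51 without replicate 1 of 6 months (adjusted p = 0.712). In every library cxcl12a exceeded cxcl12b, by 1.58 to 9.30 times. At 24 against 12 months the log2 difference was -0.84 ± 0.29 for cxcl12a (adjusted p = 0.232) and -1.096 ± 0.44 for cxcl12b (adjusted p = 0.3002). At 36 against 24 months it was 0.76 ± 0.29 for cxcl12a (adjusted p = 0.233) and 1.27 ± 0.44 for cxcl12b (adjusted p = 0.189). Both comparisons use the same 24-month libraries, and neither gene passed in either.

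The receptor cxcr4b measured 71.0, 60.4 and 73.2 FPKM at 6 months, 82.3, 64.1 and 62.2 FPKM at 12 months, 90.2, 78.0 and 59.4 FPKM at 24 months and 109, 115 and 67.3 FPKM at 36 months. Replicates 1 and 2 of 36 months were the highest of all libraries, and replicate 3 of that age lay within the range of 6 months. For 36 against 6 months the log2 difference was 0.47 ± 0.22 (adjusted p = 0.221), and 0.50 ± 0.25 without replicate 1 of 6 months (adjusted p = 0.225). Its duplicate cxcr4a measured 1.21, 2.16 and 1.32 FPKM at 6 months, 0.833, 1.91 and 1.93 FPKM at 12 months, 1.299, 1.82 and 1.12 FPKM at 24 months and 1.73, 2.46 and 2.14 FPKM at 36 months. The libraries of all ages overlapped, and a gene on the other strand overlaps it. Between 36 and 6 months its log2 difference was 0.29 ± 0.23 (adjusted p = 0.486), and 0.19 ± 0.26 without replicate 1 of 6 months (adjusted p = 0.676). In every library cxcr4b exceeded cxcr4a, by 27.9 to 98.8 times. The scavenger receptor ackr3b measured 26.1, 39.5 and 25.9 FPKM at 6 months, 18.5, 22.6 and 28.5 FPKM at 12 months, 20.7, 34.3 and 21.4 FPKM at 24 months and 24.0, 11.08 and 26.2 FPKM at 36 months. Replicate 2 of 36 months was the lowest of all and replicate 2 of 6 months the highest, and the ages overlapped. At 36 against 6 months its log2 difference was -0.62 ± 0.32 (adjusted p = 0.269), and -0.71 ± 0.36 without replicate 1 of 6 months (adjusted p = 0.235). The level of cxcr4b was 1.53 to 10.4 times that of ackr3b, and it was higher in each of the 12 libraries.

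**Figure D1:**
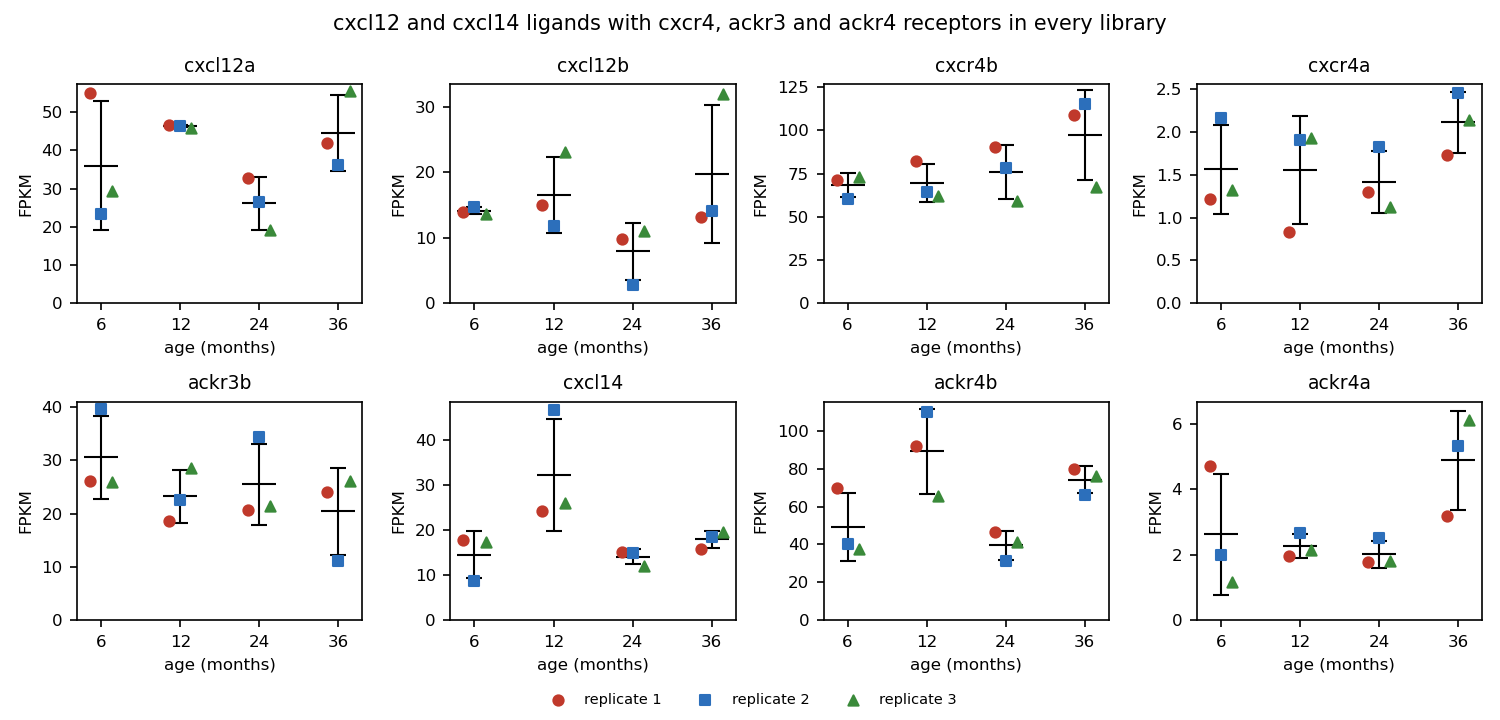
FPKM (vertical axis, from 0) of the ligands cxcl12a, cxcl12b and cxcl14 and the receptors cxcr4b, cxcr4a, ackr3b, ackr4b and ackr4a at 6, 12, 24 and 36 months (horizontal axis). Symbols are single libraries, and the black bar and whiskers are the mean and SD of 3 libraries; cxcl12a, cxcl12b, cxcl14 and ackr4b lie lower at 24 than at 12 months with no overlap.

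The ligand cxcl14 and the receptor ackr4b had their highest age mean at 12 months. In mammals CXCL14 is made constitutively by epithelia and fibroblasts, and ACKR4 scavenges CCL19, CCL21 and CCL25. In these hearts cxcl14 measured 17.8, 8.63 and 17.4 FPKM at 6 months, 24.2, 46.7 and 26.1 FPKM at 12 months, 15.1, 14.9 and 12.2 FPKM at 24 months and 15.9, 18.6 and 19.6 FPKM at 36 months. The 12-month libraries lay above all others. Its log2 difference was 1.096 ± 0.28 for 12 against 6 months (adjusted p = 0.263), -1.09 ± 0.28 for 24 against 12 months (adjusted p = 0.125) and 0.34 ± 0.28 for 36 against 6 months (adjusted p = 0.503). Without replicate 1 of 6 months the last of these was 0.51 ± 0.31 (adjusted p = 0.3205).

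For ackr4b the libraries gave 69.8, 40.4 and 37.6 FPKM at 6 months, 92.0, 109.8 and 65.6 FPKM at 12 months, 46.5, 31.4 and 41.2 FPKM at 24 months and 80.0, 66.3 and 76.3 FPKM at 36 months. Every library of 12 months and of 36 months exceeded every library of 24 months, while replicate 1 of 6 months reached the range of 12 and 36 months. The log2 difference was -1.13 ± 0.25 for 24 against 12 months (adjusted p = 0.0828), 0.90 ± 0.25 for 36 against 24 months (adjusted p = 0.120) and 0.63 ± 0.25 for 36 against 6 months (adjusted p = 0.158). Without replicate 1 of 6 months, which enters the estimate of the spread, these adjusted p-values were 0.0299, 0.0470 and 0.0306. The gene acad11 lies on the opposite strand of ackr4b, and whether the authors' counting used strand is not given in the sources used here. Its lower duplicate ackr4a, picked after its values were seen, measured 3.19, 5.34 and 6.12 FPKM at 36 months, against 1.77, 2.501 and 1.797 FPKM at 24 months and 4.71, 1.99 and 1.17 FPKM at 6 months. The 36-month libraries lay above those of 24 months, and 1 library of 6 months lay among them. For 36 against 6 months the log2 difference was 0.78 ± 0.32 (adjusted p = 0.169), and without replicate 1 of 6 months it was 1.17 ± 0.25 (adjusted p = 0.0216).

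A ligand of the cxcl11 group was one of the 2 members that rose between 6 and 36 months. Mammalian CXCL11 is induced by interferon gamma and attracts T cells through CXCR3, and in zebrafish larvae Cxcr3.2 directs macrophages. The tables name this gene CXCL11 (1 of many); the reference gene table calls it cxcl11.4, and it lies on chromosome 5 (42276824 to 42278011, minus strand, GRCz11), in an array with cxcl11.1 and cxcl20. It measured 8.35, 1.96 and 1.35 FPKM at 6 months, 10.3, 1.66 and 9.42 FPKM at 12 months, 4.81, 6.43 and 3.57 FPKM at 24 months and 59.3, 47.0 and 9.39 FPKM at 36 months. All libraries of 36 months lay above those of 6 and of 24 months, and the third was close to replicates 1 and 3 of 12 months. Reads numbered 268, 259 and 50 at 36 months, against 54, 10 and 8 at 6 months. The log2 difference for 36 against 6 months was 2.95 ± 0.75 (adjusted p = 0.0422), and without replicate 1 of 6 months it was 3.56 ± 0.76 (adjusted p = 0.0215). The call was lost without replicate 2 or 3 of 6 months, replicate 1 of 12 months, any replicate of 24 months or replicate 1 or 2 of 36 months, with adjusted p up to 0.132 and a log2 difference of at least 2.47. It was also lost with no filter (adjusted p = 0.0816) and with limma voom on the recovered reads (adjusted p = 0.107).

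The genes cxcl11.8, cxcl11.6 and cxcl11.1 were high in replicate 1 of 6 months. For cxcl11.8 the values were 17.1, 0 and 0.266 FPKM at 6 months, 0.263, 0.583 and 2.36 FPKM at 12 months, 0.784, 0.922 and 0.166 FPKM at 24 months and 28.4, 32.04 and 6.22 FPKM at 36 months. The 36-month libraries exceeded those of 12 and 24 months, and among the 6-month libraries 1 lay within their range and the others near 0. At 36 against 6 months the log2 difference was 2.75 ± 0.97 (adjusted p = 0.116), and without replicate 1 of 6 months it was 4.09 ± 0.62 (adjusted p = 0.00749). At 36 against 24 months it was 3.59 ± 0.97 (adjusted p = 0.111), and 3.59 ± 0.56 (adjusted p = 0.0179) with that library left out of the fit.

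The remaining members of the group had lower levels. The gene cxcl11.1 measured 8.49, 0.283 and 0.976 FPKM at 6 months, 3.50, 0.4004 and 1.96 FPKM at 12 months, 0.599, 2.22 and 1.21 FPKM at 24 months and 8.64, 7.21 and 3.39 FPKM at 36 months. The gene cxcl11.6, which unnamed loci overlap on its strand and a named gene on the other, measured 19.7, 1.39 and 0.683 FPKM at 6 months, 5.07, 1.49 and 0.866 FPKM at 12 months, 0.503, 1.77 and 0.850 FPKM at 24 months and 6.71, 7.16 and 3.99 FPKM at 36 months. In both genes all 36-month libraries lay above those of 24 months, and replicate 1 of 6 months was high. For 36 against 6 months the log2 difference was 1.28 ± 0.68 for cxcl11.1 (adjusted p = 0.279) and 0.64 ± 0.79 for cxcl11.6 (adjusted p = 0.665). Without replicate 1 of 6 months it was 2.14 ± 0.51 for cxcl11.1 (adjusted p = 0.0299) and 1.76 ± 0.47 for cxcl11.6 (adjusted p = 0.0433). The genes cxcl11.5 and cxcl11.7 had 2 and 4 reads over all libraries, and unnamed loci overlap both on their strand.

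The receptors of these ligands, cxcr3.2 and cxcr3.1, did not pass at 36 against 6 months in the fit of all libraries. For cxcr3.2 the libraries gave 16.5, 3.14 and 6.66 FPKM at 6 months, 13.7, 8.16 and 11.7 FPKM at 12 months, 15.5, 11.06 and 13.0 FPKM at 24 months and 19.5, 15.5 and 9.43 FPKM at 36 months. The lowest values were replicates 2 and 3 of 6 months, and the other ages overlapped. Its log2 difference for 36 against 6 months was 0.89 ± 0.44 (adjusted p = 0.248), and 1.44 ± 0.34 without replicate 1 of 6 months (adjusted p = 0.0289). The receptor cxcr3.1 measured 3.28, 6.11 and 1.897 FPKM at 6 months, 2.09, 4.31 and 3.45 FPKM at 12 months, 1.898, 4.898 and 1.425 FPKM at 24 months and 6.99, 6.00 and 2.83 FPKM at 36 months. Its libraries overlapped between all ages, and the log2 difference for 36 against 6 months was 0.43 ± 0.42 (adjusted p = 0.583), and 0.40 ± 0.49 without replicate 1 of 6 months (adjusted p = 0.643). In 11 of 12 libraries cxcr3.2 was above cxcr3.1. The difference between ligands and receptors was not tested.

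**Figure D2:**
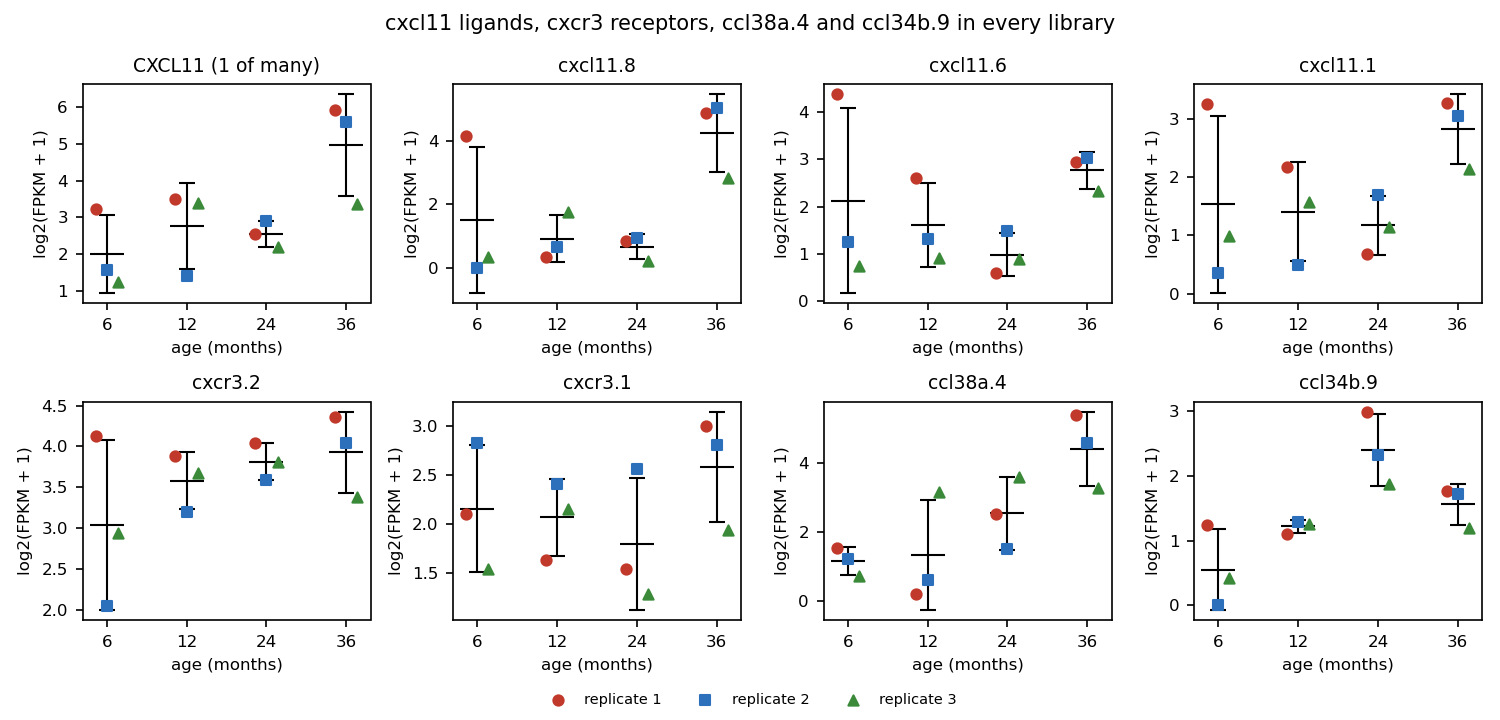
Level on the log2(FPKM + 1) scale (vertical axis) of 4 cxcl11 ligands, the receptors cxcr3.2 and cxcr3.1, ccl38a.4 and ccl34b.9 at 6, 12, 24 and 36 months (horizontal axis). Symbols are single libraries, and the bar and whiskers are mean and SD of 3 libraries; replicate 1 of 6 months is high for the cxcl11 genes, and the 36-month libraries of ccl38a.4 lie above all those of 6 months.

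The other member that rose was ccl38a.4, a CC ligand on chromosome 20 (38382792 to 38383674, plus strand, GRCz11). It measured 1.92, 1.31 and 0.646 FPKM at 6 months, 0.160, 0.530 and 7.92 FPKM at 12 months, 4.76, 1.82 and 11.05 FPKM at 24 months and 41.3, 22.7 and 8.62 FPKM at 36 months. The libraries of 36 months lay above all those of 6 months, and the third of them was within the range of 24 months. The mean was 24.2 ± 16.4 FPKM at 36 months, against 1.29 ± 0.638 FPKM at 6 months, and reads numbered 195, 131 and 48 against 13, 7 and 4. The log2 difference was 3.25 ± 0.79 (adjusted p = 0.0364), and without replicate 1 of 6 months it was 3.45 ± 0.91 (adjusted p = 0.0418). In the linear trend over the 4 ages it rose by 1.104 ± 0.23 log2 units per 10 months (adjusted p = 0.0196).

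The call of ccl38a.4 at 36 against 6 months was lost without replicate 2 or 3 of 6 months, replicate 1 of 24 months or replicate 1 or 2 of 36 months, with adjusted p up to 0.112. It was also lost with a pseudocount of 0.1 (adjusted p = 0.0589) and with no filter (adjusted p = 0.0698). The replicate number as a block (adjusted p = 0.0621) and limma voom on the recovered reads (adjusted p = 0.0880) lost it too. The trend call was lost without replicate 1 of 36 months (adjusted p = 0.0671) or replicate 2 (adjusted p = 0.0602). The gene lies within the span of ccl38.6 on the same strand, so reads of one could be given to the other. For ccl38.6 the values were 2.92, 0.398 and 0.275 FPKM at 36 months, against 0.396, 1.07 and 0.741 FPKM at 6 months, with overlap between the ages. The third ligand of this array, ccl38a.5, had no reads at 6 months and 17 reads at 36 months, all in replicate 1. The more distant ccl38.1 was lower in all libraries at 36 months, at 0.593, 0.324 and 0.336 FPKM, than at 6 months, at 1.24, 1.05 and 0.905 FPKM, on 2 to 9 reads a library (log2 difference -0.55 ± 0.56, adjusted p = 0.595, and -0.48 ± 0.65, adjusted p = 0.673, without replicate 1 of 6 months).

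The ccl34b array on chromosome 24 (27318127 to 27433692, GRCz11) held the most abundant ligand and the single member past the threshold in the test across the 4 ages. That member was ccl34b.9 (adjusted p = 0.0478). It measured 1.36, 0 and 0.331 FPKM at 6 months, 1.15, 1.45 and 1.40 FPKM at 12 months, 6.99, 4.01 and 2.68 FPKM at 24 months and 2.39, 2.31 and 1.29 FPKM at 36 months. The 24-month libraries were above those of every other age. The highest read number was 43 and the lowest 0. Its log2 difference was 1.18 ± 0.34 for 24 against 12 months (adjusted p = 0.161), -0.84 ± 0.34 for 36 against 24 months (adjusted p = 0.264) and 1.01 ± 0.34 for 36 against 6 months (adjusted p = 0.106). Without replicate 1 of 6 months the last of these was 1.355 ± 0.32 (adjusted p = 0.0281). The adjusted p across the ages was 0.0176 without replicate 1 of 6 months and 0.0536 to 0.109 without any other single library, so that the call was lost in each fit without one of those. It was also lost with a pseudocount of 0.1 (adjusted p = 0.0870), with no filter (adjusted p = 0.0920) and with the replicate number as a block (adjusted p = 0.0571). Limma voom on the recovered reads (adjusted p = 0.107) and eBayes without trend (adjusted p = 0.0557) lost it too.

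The most abundant ligand, ccl34b.4, measured 110.1, 12.9 and 26.5 FPKM at 6 months, 26.8, 14.0 and 157 FPKM at 12 months, 69.3, 80.0 and 53.5 FPKM at 24 months and 154, 106 and 50.8 FPKM at 36 months. The range within 6 and within 12 months exceeded any difference between age means. Its log2 difference for 36 against 6 months was 1.44 ± 0.87 (adjusted p = 0.344), and 2.28 ± 0.83 without replicate 1 of 6 months (adjusted p = 0.109). In the same array ccl34b.1 averaged 2.35 ± 1.04 FPKM at 36 months, against 3.31 ± 2.91 FPKM at 6 months, and ccl34b.8 averaged 3.08 ± 1.25 FPKM, against 4.66 ± 5.95 FPKM. At 6 months both were highest in replicate 1, and neither passed in any test. At 36 against 6 months the log2 difference of ccl34b.1 was -0.22 ± 0.49 (adjusted p = 0.819). It turned to 0.29 ± 0.44 without replicate 1 of 6 months (adjusted p = 0.711). For ccl34b.8 it was 0.09 ± 0.74 (adjusted p = 0.958), and 0.96 ± 0.60 without that library (adjusted p = 0.334).

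The neutrophil ligands cxcl18b and cxcl8a ranged more widely within 6 months than their means did between ages. The gene cxcl18b, which attracts neutrophils through Cxcr2 in zebrafish, measured 64.6, 20.5 and 18.4 FPKM at 6 months, 18.1, 24.1 and 34.4 FPKM at 12 months, 24.4, 30.9 and 16.2 FPKM at 24 months and 51.2, 40.6 and 23.0 FPKM at 36 months. The highest and some of the lowest values both came from 6 months, and the log2 difference for 36 against 6 months was 0.31 ± 0.46 (adjusted p = 0.726), and 0.87 ± 0.36 without replicate 1 of 6 months (adjusted p = 0.153). The neutrophil attractant cxcl8a, picked after its values were seen, measured 2.21, 1.99 and 0.748 FPKM at 36 months, against 17.3, 0.977 and 1.01 FPKM at 6 months. Replicate 1 of 6 months alone was above 3 FPKM among the 12 libraries. Its log2 difference was -0.70 ± 0.76 (adjusted p = 0.617) and turned to 0.36 ± 0.47 without that library (adjusted p = 0.662).

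The abundant ligands ccl35.1, cxcl20 and ccl20b had overlapping values at 36 and 6 months. The values of ccl35.1 were 54.2, 25.8 and 15.1 FPKM at 6 months, 22.5, 11.03 and 28.4 FPKM at 12 months, 39.9, 40.4 and 16.7 FPKM at 24 months and 29.8, 36.7 and 17.0 FPKM at 36 months. Its log2 difference for 36 against 6 months was -0.06 ± 0.51 (adjusted p = 0.956) and turned to 0.41 ± 0.49 without replicate 1 of 6 months (adjusted p = 0.635). Those of cxcl20 were 16.6, 15.7 and 10.6 FPKM at 6 months, 8.88, 7.34 and 11.4 FPKM at 12 months, 20.5, 21.0 and 14.8 FPKM at 24 months and 31.0, 18.4 and 8.95 FPKM at 36 months. The libraries of 24 months lay above those of 12 months, and the log2 difference of 0.95 ± 0.36 did not pass (adjusted p = 0.271). For 36 against 6 months it was 0.28 ± 0.36 (adjusted p = 0.671), and 0.40 ± 0.41 without replicate 1 of 6 months (adjusted p = 0.568). The ligand ccl20b, which in mammals attracts lymphocytes and dendritic cells through CCR6, was picked after its values were seen. It measured 16.4, 17.0 and 15.7 FPKM at 36 months, against 5.44, 31.1 and 10.5 FPKM at 6 months, so it was the one ligand of this group whose highest 6-month value came from replicate 2. The log2 difference was 0.38 ± 0.48 (adjusted p = 0.679) and turned to -0.15 ± 0.43 without replicate 1 of 6 months (adjusted p = 0.858). Its receptor ccr6a averaged 1.45 ± 0.286 FPKM at 36 months, against 1.48 ± 0.603 FPKM at 6 months.

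The CC ligand ccl36.1 (chromosome 7, 39434987 to 39436144), also picked after its values were seen, measured 8.55, 7.75 and 5.74 FPKM at 6 months, 3.43, 6.13 and 12.4 FPKM at 12 months, 4.59, 6.70 and 2.49 FPKM at 24 months and 19.1, 11.04 and 15.9 FPKM at 36 months. The libraries of 36 months lay above all those of 24 and 6 months. The log2 difference was 0.95 ± 0.39 for 36 against 6 months (adjusted p = 0.171) and 1.59 ± 0.39 for 36 against 24 months (adjusted p = 0.0876). Without replicate 1 of 6 months the first was 1.06 ± 0.45 (adjusted p = 0.161), and an unnamed locus overlaps the gene on its strand. The receptor ccr9a, which guides T cells in the thymus and gut of mammals, measured 15.9, 13.3 and 22.0 FPKM at 6 months, 10.6, 12.6 and 16.4 FPKM at 12 months, 26.03, 11.09 and 11.07 FPKM at 24 months and 27.4, 27.9 and 15.99 FPKM at 36 months. The third library of 36 months lay within the range of 6 months. The log2 difference for 36 against 6 months was 0.44 ± 0.33 (adjusted p = 0.458), and 0.41 ± 0.39 without replicate 1 of 6 months (adjusted p = 0.536). The remaining receptors that reached the minimum (xcr1a.1, xcr1b.1, xcr1b.3, ccr11.1, ccr12b.1 and ccr12b.2) averaged 0.540 to 1.64 FPKM, and 0 of them passed in any test.

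The share of members called moved with the libraries in the fit, as did that of all genes. At 36 against 6 months 2 of 36 ligands and 0 of 15 receptors passed, which is 3.92% of members, beside 6.37% of all genes tested. Both calls were higher at 36 months, where 3.14% of all genes were called higher and 3.23% lower. Without adjustment, p was under 0.05 for 5 ligands and 2 receptors that were higher (13.7% of members) and for 0 members that were lower, against 11.6% and 12% of all genes. Values at 36 months lay wholly above those at 6 months for CXCL11 (1 of many), ccl36.1 and ccl38a.4, 5.88% of members against 12.8% of all genes, and wholly below them for ccl38.1, 1.96% against 13.3%. The median log2 difference was 0.22 for ligands, 0.29 for receptors and 0 for all genes tested. It was positive for 24 of 36 ligands and 9 of 15 receptors. Leaving out single libraries, the ligand median ran from 0.03 without replicate 1 of 36 months to 0.40 without replicate 1 of 6 months. The receptor median ran from 0.12 without replicate 3 of 6 months to 0.37 without replicate 1.

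Without replicate 1 of 6 months, 9 of 50 members (18%) passed at 36 against 6 months, all higher at 36 months, beside 9.64% of 20622 genes tested. These were CXCL11 (1 of many), cxcl11.8, cxcl11.1, cxcl11.6, ccl38a.4, ccl34b.9, cxcr3.2, ackr4a and ackr4b. That library was singled out in part because it was the highest of its age for 27 of 36 ligands. Leaving it out therefore lowers the 6-month level of many members. The share of members cannot for this reason be weighed against that of all genes in this fit. The count of members was 0 without replicate 2 or 3 of 6 months, replicate 1 of 24 months or replicate 1 or 2 of 36 months. It was 1 without replicate 1 of 12 months or replicate 2 or 3 of 24 months. The share of all genes called was 2.24% to 4.9% in the fits with a count of 0. In the fits with a count of 1 it was 4.98% to 5.17%.

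**Figure D3:**
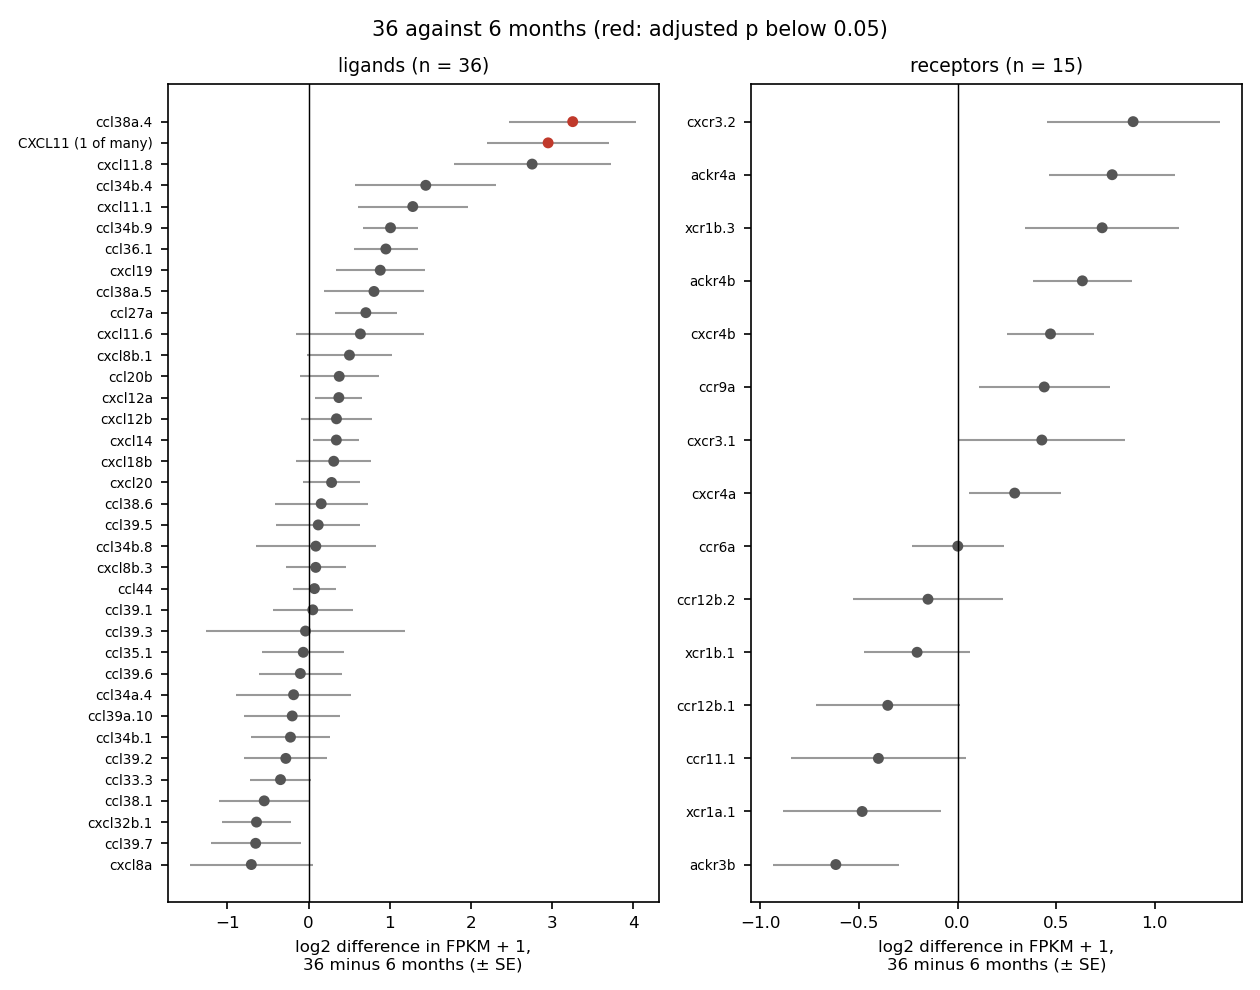
Log2 difference of FPKM + 1, 36 minus 6 months, with SE (horizontal axis), for the 36 ligands and 15 receptors that reached the minimum, ordered by size. Red points passed the adjusted threshold of 0.05; ccl38a.4 at 3.25 and CXCL11 (1 of many) at 2.95 are the 2 red points, and all receptors lie between -0.62 and 0.89.

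Between neighbouring ages 0 members passed with limma in any step, and 0 with limma voom on the recovered reads. With limma voom 0.00483% to 0.483% of all genes passed in these steps. At 12 against 6 months 0.0145% of all genes passed, and 2 members, ackr4b and cxcl14, were higher with an unadjusted p under 0.05 and 0 were lower, against 4.31% and 4.62% of all genes. Values lay wholly above for cxcl14 (5.98% of all genes) and wholly below for 0 members (6.42% of all genes). At 24 against 12 months 0.478% of all genes passed. Members with an unadjusted p under 0.05 were 2 that were higher and 4 that were lower, against 7.08% and 6.58% of all genes. Values lay wholly apart for cxcl20 and ccl34b.9 higher (3.92% against 11.1% of all genes), and cxcl12a, cxcl12b, cxcl14 and ackr4b lower (7.84% against 10.6%).

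At 36 against 24 months 1.05% of all genes passed, and 11 members had an unadjusted p under 0.05 and were higher, with 1 lower. That is 21.6% of members, beside 7.88% of all genes that were higher and 8.12% that were lower by this measure. Values at 36 months lay wholly above those at 24 months for 11 members, 21.6% against 11.8% of all genes. They were the ligands cxcl12a, cxcl12b, cxcl14, CXCL11 (1 of many), cxcl11.1, cxcl11.6, cxcl11.8 and ccl36.1 and the receptors ackr4a, ackr4b and xcr1b.3. Values lay wholly below for ccl34b.9 and ccl39.2, 3.92% against 12.5%. The median log2 difference was 0.32 for ligands and 0.24 for receptors, against 0.01 for all genes, and 12 of 15 receptors were positive. In the linear trend 1 member passed, beside 6.16% of all genes, and 7 members (13.7%) with an unadjusted p under 0.05 had a positive slope and 0 a negative one, against 12% and 11.7% of all genes. Across the ages 1 passed, beside 3.86% of all genes, and 7 had an unadjusted p under 0.05, beside 23.2% of all genes.

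Libraries of the same age differed more in ligands than in most genes. The SD within ages on log2(FPKM + 1) had a median of 0.714 for the 36 ligands, 0.460 for the 15 receptors and 0.310 for all genes tested. Set against genes of like level, 35 of 36 ligands were over the median and 20 over the 90th percentile. Of 15 receptors 12 were over the median and 1 over the 90th percentile. Like level means like mean FPKM, at which a shorter gene has fewer reads and more counting noise. Ligand genes tested were 212 to 3041 bases long and receptor genes 935 to 3687 bases. The shortest, ccl39a.10, had 17 reads over the 12 libraries. The part of read number in the spread was not tested. The SD was 1.75 for ccl39.3, 1.37 for cxcl11.8 and 1.24 for ccl34b.4, and 0.274 for ccr6a, 0.275 for cxcr4a and 0.291 for cxcr4b. Reads of ccl39.3 were absent from 6 of the 12 libraries and reached 54 in replicate 2 of 24 months.

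**Figure D4:**
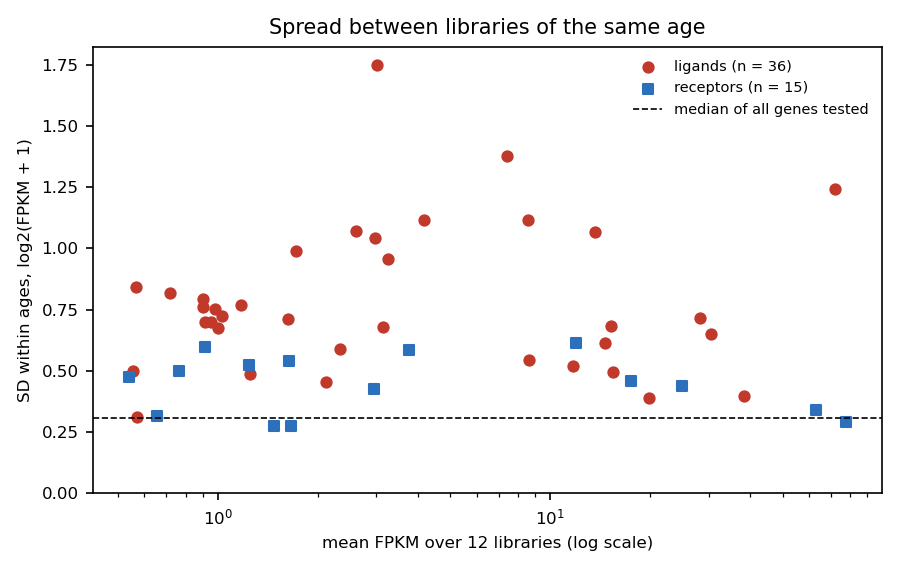
SD of log2(FPKM + 1) within ages (vertical axis) against mean FPKM over 12 libraries (horizontal axis, log scale) for 36 ligands (circles) and 15 receptors (squares), with the median of all genes tested as a dashed line at 0.310. Most ligands lie above the line at every level, and the receptors lie closer to it.

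Summed over all 52 genes, the ligands gave 480.5, 186.8 and 194.2 FPKM at 6 months, 241.8, 223.8 and 439.3 FPKM at 12 months, 278.4, 311.5 and 212.5 FPKM at 24 months and 567, 446.7 and 302.5 FPKM at 36 months. Replicate 1 of 6 months, replicate 3 of 12 months and replicate 2 of 24 months reached the range of 36 months. The 26 receptors gave 223.8, 175.2 and 178.9 FPKM at 6 months, 232.1, 233.7 and 202.9 FPKM at 12 months, 209.4, 183.4 and 155.5 FPKM at 24 months and 282.5, 262.5 and 214.3 FPKM at 36 months. Their sums varied less, and all libraries of 36 months exceeded those of 24 months. In tissue RNA more cells of a type and more RNA per cell cannot be told apart.

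Within each age the library with the highest ligand sum also had the highest pan-leukocyte and macrophage marker sums. For neutrophil marker sums this did not hold at every age. Between ages the sums did not always move together. From 12 to 24 months the lowest ligand sum went from 223.8 to 212.5 FPKM and the highest from 439.3 to 311.5 FPKM. The lowest pan-leukocyte sum went from 181.0 to 264.4 FPKM and the highest from 307.8 to 335.5 FPKM. The middle library rose in both, from 241.8 to 278.4 FPKM for ligands and from 230.5 to 273.3 FPKM for pan-leukocyte markers. The part of leukocytes in the results above was not tested. The 12 pan-leukocyte markers summed to 412.2, 155.2 and 164.1 FPKM at 6 months, 230.5, 181.0 and 307.8 FPKM at 12 months, 273.3, 335.5 and 264.4 FPKM at 24 months and 423.9, 418.8 and 264.8 FPKM at 36 months. The 21 macrophage markers summed to 1113, 346.8 and 325.7 FPKM at 6 months, 525.5, 652.5 and 870.4 FPKM at 12 months, 631.2, 747.2 and 508.5 FPKM at 24 months and 1306, 1238 and 669.4 FPKM at 36 months. The macrophage sum includes apoc1, at 267.8 FPKM in replicate 2 of 12 months and 48.6 FPKM in replicate 1 of 6 months. In the other libraries apoc1 was at 0.1425 to 18.7 FPKM. The same libraries had the most RNA of hepatocyte markers, 661 and 197.5 FPKM, and the part of liver RNA was not tested. Replicate 1 at 6 months, replicate 3 at 12 months and replicates 1 and 2 at 36 months were the high libraries of their ages, as for the ligands. The 12 genes listed as T cell markers ranged from 19.1 to 48.3 FPKM at 36 months, against 9.79 to 22.9 FPKM at 6 months. Their sums ran from 7.31 to 32.6 FPKM at 12 months and from 13.7 to 31.6 FPKM at 24 months. They include cd3eap, which despite its name is not a T cell gene, at 1.85 to 3.2 FPKM in all libraries. The 15 genes listed as neutrophil markers ranged from 152.5 to 875.9 FPKM at 36 months, against 69.5 to 220.2 FPKM at 6 months. They include cpa5, a mast cell gene, at 28.1 and 26.2 FPKM in replicates 2 and 3 of 6 months. The neutrophil sums were 216.2, 413.3 and 200.7 FPKM at 12 months and 507.2, 1487 and 901.6 FPKM at 24 months. Their highest library of 12 months, replicate 2, had the lowest ligand sum of that age. The 7 B cell markers ranged from 9.03 to 15.2 FPKM at 36 months, against 8.03 to 16.4 FPKM at 6 months.

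By the test per gene, 0 of 9 pan-leukocyte, 0 of 15 macrophage, 0 of 12 neutrophil and 0 of 5 B cell markers passed at 36 against 6 months with limma. With unadjusted p-values under 0.05, 3, 4, 4 and 0 of them were higher and 0 were lower, against 11.6% and 12% of all genes. With adjusted p-values 6.37% of all genes passed. The median log2 difference was 0.58 for pan-leukocyte and for macrophage, 0.83 for neutrophil and -0.10 for B cell markers. The 11 genes listed as T cell markers, cd3eap among them, had a median log2 difference of 0.89. With unadjusted p-values under 0.05, 2 of them were higher and 0 lower. Of these 11 genes 1 rose, the T cell signalling gene themis. It measured 9.20, 7.64 and 3.48 FPKM at 36 months, against 1.55, 0.196 and 0.549 FPKM at 6 months (log2 difference 2.13 ± 0.41, adjusted p = 0.0167). The neutrophil lysozyme gene lyz measured 686, 216 and 63.0 FPKM at 36 months, against 76.3, 12.8 and 10.7 FPKM at 6 months (log2 difference 3.19 ± 0.91, adjusted p = 0.0626). At 24 months lyz measured 346.7, 1336 and 780.6 FPKM. The defining markers ptprc and lcp1 of leukocytes and mfap4 and marco of macrophages were listed at 0 in every library, and an unnamed locus overlaps each of them on its strand.

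**Figure D5:**
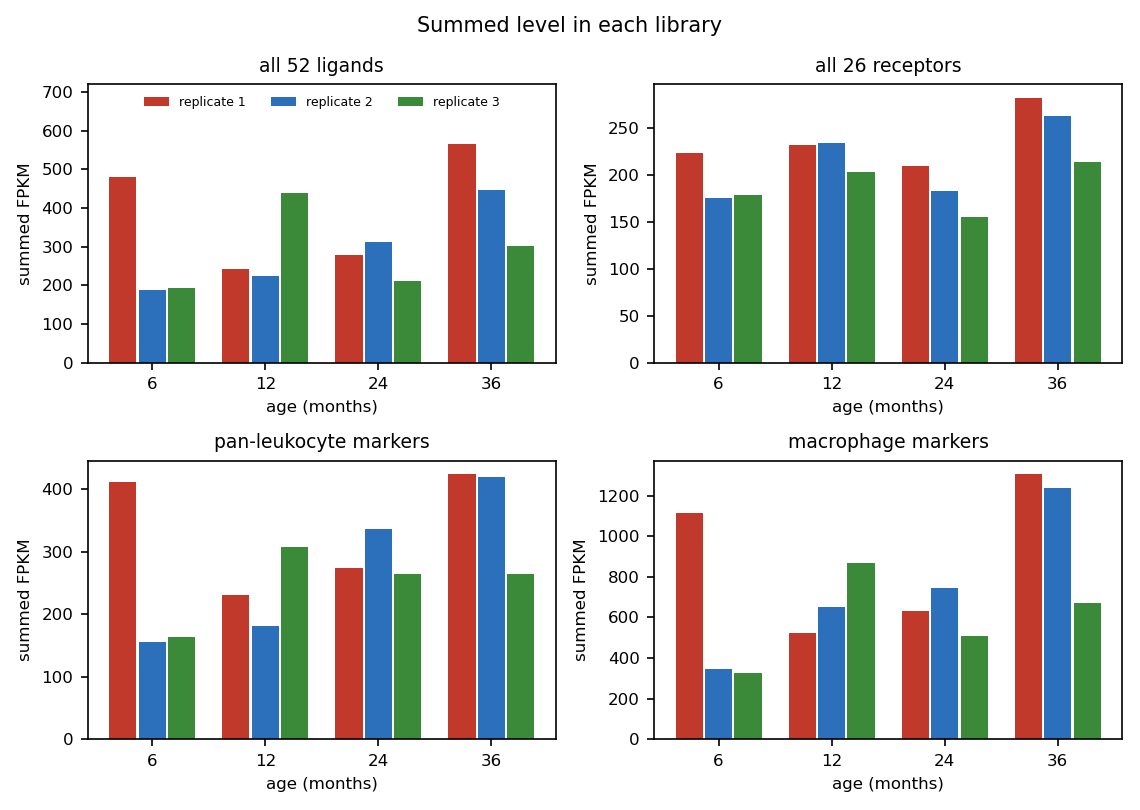
Summed FPKM in each library (vertical axes, bars from 0) of the 52 ligands, the 26 receptors, 12 pan-leukocyte markers and 21 macrophage markers at 6, 12, 24 and 36 months (horizontal axes). The macrophage bar of replicate 2 at 12 months holds 267.8 FPKM of apoc1. Bars are the 3 libraries of an age in the order of their replicate numbers; the ligand sum of replicate 1 at 6 months is 480.5 FPKM, against 186.8 and 194.2 FPKM in the other two.

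Other cell types that can make or bind chemokines gave at most 1 call each at 36 against 6 months, beside 6.37% of all genes. Each list had too few markers tested to weigh against that share. Markers that reached the minimum were 5 of 12 endothelial, 5 of 7 lymphatic and 6 of 11 epicardial and fibroblast ones. Of thrombocyte markers 3 of 6 did, and of cardiomyocyte markers 7 of 10. Among the rest cdh5, tie1, tek, tbx18 and wt1a were listed at 0 in every library, and an unnamed locus overlaps each on its strand. Of 5 endothelial markers 1 rose, the vascular growth factor receptor kdr (log2 difference 0.53 ± 0.13, adjusted p = 0.0341). The median log2 difference of the 5 was -0.13. It was 0.64 ± 0.30 for cldn5b (adjusted p = 0.218), -0.38 ± 0.32 for egfl7 (adjusted p = 0.508) and -0.20 ± 0.21 for kdrl (adjusted p = 0.610). Of 5 lymphatic markers 1 rose, the hyaluronan receptor lyve1a, at 38.5, 42.5 and 30.2 FPKM at 36 months, against 6.17, 15.9 and 10.4 FPKM at 6 months (log2 difference 1.76 ± 0.36, adjusted p = 0.0207). With unadjusted p-values under 0.05, 3 of the 5 were higher and 0 lower, against 11.6% and 12% of all genes. The 7 lymphatic markers in the tables summed to 18.3 to 22.4 FPKM at 6 months, 28.95 to 41.2 FPKM at 12 months, 17.2 to 29.2 FPKM at 24 months and 51.2 to 55.7 FPKM at 36 months. Their age means were thus higher at 12 and 36 months than at 6 and 24 months, as for ackr4b and cxcl12a, and their part in the levels of those members was not tested. Of 6 epicardial and fibroblast markers and 3 thrombocyte markers 0 passed, with 1 and 0 at an unadjusted p under 0.05, and the retinoic acid synthesis gene aldh1a2 fell in the linear trend (-0.25 per 10 months, adjusted p = 0.0468). Of 7 cardiomyocyte markers 1 fell, the transcription factor nkx2.5 (log2 difference -0.72 ± 0.11, adjusted p = 0.00651). The median log2 difference of the 7 was -0.18. It was -0.32 ± 0.18 for nppa (adjusted p = 0.314), and positive for myl7 at 0.58 ± 0.57 (adjusted p = 0.581) and myh6 at 0.34 ± 0.36 (adjusted p = 0.620). Hepatocyte markers summed to 2.58 to 15.0 FPKM at 36 months, against 5.28 to 197.5 FPKM at 6 months. They were highest in replicate 2 of 12 months at 661 FPKM, and carry-over of liver was not tested. Replicate 1 was the 6-month library with 197.5 FPKM, and the part of liver RNA in its ligand levels was not tested.

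The signalling genes downstream of chemokine receptors that reached the minimum gave 0 or 1 call a list at 36 against 6 months. The share of all genes called was 6.37%, and these lists are too small to weigh against it. Chemokine receptors act through inhibitory G proteins and are switched off by receptor kinases and arrestins. Of 13 G protein and effector genes 0 passed, with 2 higher at an unadjusted p under 0.05, and the inhibitory subunit gnai2b had a log2 difference of 1.03 ± 0.31 (adjusted p = 0.0724). Of 6 receptor kinase and arrestin genes 0 passed, with 1 higher at an unadjusted p under 0.05. Of 7 RGS genes, which shorten G protein signals, 1 fell. This was rgs5a, a pericyte and smooth muscle gene, at 155, 137 and 178 FPKM at 36 months, against 352, 346 and 533 FPKM at 6 months (log2 difference -1.36 ± 0.23, adjusted p = 0.0109).

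Genes that cut or bind chemokines and genes that induce them each gave 1 or 2 calls at 36 against 6 months. The share of all genes called was 6.37%. The tests covered 20 of 24 listed genes of the first kind and 16 of 31 of the second. Among the inducers under the minimum were nfkb1, rela and myd88, and an unnamed locus overlaps each on its strand. Of 20 processing and binding genes, dpp4, whose mammalian product clips and inactivates CXCL12 and CXCL11, fell. It measured 1.14, 0.896 and 0.999 FPKM at 36 months, against 2.82, 3.35 and 2.63 FPKM at 6 months (log2 difference -0.97 ± 0.16, adjusted p = 0.0107). In the same list the sheddase gene adam17a rose (log2 difference 0.49 ± 0.11, adjusted p = 0.0295), and mmp9, a gelatinase that cleaves chemokines, did not pass at 2.101 ± 0.58 (adjusted p = 0.0562) but rose in the linear trend, by 0.75 per 10 months (adjusted p = 0.0238). Of 16 inducer genes stat3, the transcription factor of interleukin 6 signalling, rose. It measured 61.1, 51.2 and 49.5 FPKM at 36 months, against 21.0, 19.6 and 27.0 FPKM at 6 months (log2 difference 1.23 ± 0.14, adjusted p = 0.00199). The interferon gamma gene listed as ifng1-2 measured 5.25, 9.59 and 1.01 FPKM at 36 months, against 1.17, 0 and 0 FPKM at 6 months (log2 difference 1.98 ± 0.58, adjusted p = 0.0692), and in the linear trend it rose by 0.71 per 10 months (adjusted p = 0.02955). Of 3 further genes of chemoattractant receptors outside the naming rule 0 passed, with 2 higher at an unadjusted p under 0.05, and the oxysterol receptor gene gpr183a had a log2 difference of 0.88 ± 0.37 (adjusted p = 0.175).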

How the data were processed

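RNA of zebrafish hearts was extracted with Trizol and sequenced on an Illumina HiSeq instrument, per the labels and the series description. The submitters' processing notes name CASAVA 1.8, the aligner HISAT2 2.0.5 and the build GRCz11. The deposited values are FPKM per gene, 1 column per library, in a table per age, with 35116 Ensembl genes and 15524 unnamed loci. The counting tool and annotation release are not given in the sources used here. FPKM times gene length gave whole reads within 0.01 read for 100% of values in every library, and median-ratio size factors of the deposited FPKM ran from 1.01 to 1.02, so the tables were used on 1 scale.

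Genes with a mean of at least 0.5 FPKM (20699) were fitted on log2(FPKM + 1) with limma 3.58.1 in R 4.3.3 (4 age means, 12 libraries, eBayes with trend). The 4 pairwise contrasts, the F test across ages and a linear trend were two-sided and adjusted by Benjamini-Hochberg, with a threshold of 0.05. The procedure was tested on simulated data. Tables and figures were made with Python 3.11.15, pandas 2.3.3, numpy 2.4.6 and matplotlib 3.10.9.

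Values per library are given for every member past the threshold and for the 6 ligands and 6 receptors of highest mean. They are also given for the known partners of these that reached the minimum. Of each further list up to 4 genes with the smallest p at 36 against 6 months could be named. These 18 lists held 282 symbols, of which 246 matched by name, 7 by reference symbol and 29 not at all. The result of 1 list is not reported here. The members and lists were chosen with earlier results of these data known. Alternatives were a pseudocount of 0.1, a minimum mean of 1 FPKM, no filter, median-ratio size factors, the replicate number as a block, limma voom on the recovered reads, eBayes without trend and each library left out in turn.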

Additional observations from a re-analysis of the deposited data

How the results depend on the processing

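At 36 against 6 months 2 members passed. The count was 1 with a pseudocount of 0.1 or with the replicate number as a block (CXCL11 (1 of many) in both), 0 with no filter and 0 with limma voom, and 0 to 9 with 1 library left out. It was 2 with a minimum mean of 1 FPKM, with size factors and with eBayes without trend. The share of all genes called was 6.37% in the main fit, 6.06% with the pseudocount and 3.72% with the block. With no filter it was 2.26%, with limma voom 4.6% and with 1 library left out 2.24% to 9.64%. Across the ages 1 member passed. The count was 0 with a pseudocount of 0.1, no filter, the replicate block, limma voom or eBayes without trend, and 0 to 5 with 1 library left out. Of all genes 3.86% passed in the main fit and 1.1% to 3.61% under those settings. With 1 library left out 1.34% to 7.58% of all genes passed. In the linear trend 1 member passed, against 2 with limma voom (ccl38a.4 and cxcl11.8) and 0 to 5 with 1 library left out. There 6.16% of all genes passed, against 5.27% with limma voom and 1.83% to 9.63% with 1 library left out. With 1 library left out the count was 0 to 1 at 24 against 12 months and 0 to 2 at 36 against 24 months. In the same order, 0% to 1.09% and 0.265% to 2.13% of all genes passed. At 12 against 6 months the count stayed at 0 under every alternative, where at most 0.237% of all genes passed. Over the 19 alternatives the adjusted p at 36 against 6 months ran from 0.0155 to 0.112 for ccl38a.4, with 10 past the threshold, and from 0.0215 to 0.132 for CXCL11 (1 of many), with 9 past it. For the trend of ccl38a.4 it ran from 0.0138 to 0.0671, with 17 past it, and for ccl34b.9 across the ages from 0.0176 to 0.109, with 3 past it. The sign at 36 against 6 months turned with 1 library left out for 21 of the 51 members tested and under another setting for 6, none of which had passed. Of the 24 members followed singly it turned for 7, in each case with 1 library left out. The log2 differences of these 7 ran from -0.00712 to 0.87 for cxcl18b, -0.48 to 0.41 for ccl35.1, -0.12 to 0.73 for cxcl20, -0.0460 to 0.56 for cxcl12b, -0.0489 to 1.76 for cxcl11.6, -1.24 to 0.36 for cxcl8a and -0.15 to 1.01 for ccl20b. Among other members with values given above, the sign turned for ccl34b.1, ccl34b.8, ccr6a and ccl38.6 with 1 library left out. For ccr6a and ccl38.6 it also turned under another setting. The cause of these changes was not tested, beyond there being fewer libraries. The replicate numbers did not pair the libraries: the deviations of equally numbered libraries from their age means correlated at -0.1365 to 0.0777 over 18 pairs, with 0 over 0.1. With 3 libraries an age and some ligands at under 10 reads, small changes were not detectable.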

Other observations

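A set of loci without a name carries a chemokine domain in the description of the tables and falls outside the naming rule. Of these 10 loci, 4 averaged at least 0.5 FPKM and 3 were listed at 0 in every library. The most abundant, on chromosome 2 (40233124 to 40327714, minus strand, GRCz11), spans ccl34a.3 and ccl34a.4 and measured 4.04, 5.62 and 1.77 FPKM at 36 months, against 15.4, 0.542 and 0.747 FPKM at 6 months. Replicate 1 of 6 months was the highest of its 12 libraries, as it was for ccl34a.4 at 8.73 FPKM. The log2 difference was 0.35 ± 0.78 (adjusted p = 0.819), and the adjusted p was 0.0751 without that library. A locus on an unplaced scaffold measured 3.73, 2.42 and 0.654 FPKM at 36 months, against 1.08, 0.228 and 0.0980 FPKM at 6 months, with overlap between the ages. Its log2 difference was 1.09 ± 0.36 (adjusted p = 0.101), and the adjusted p was 0.0478 without replicate 1 of 6 months. A locus on chromosome 25, beside the ccl39 array, measured 0.286, 2.81 and 0.848 FPKM at 36 months, against 3.59, 3.79 and 1.09 FPKM at 6 months (log2 difference -0.78 ± 0.47, adjusted p = 0.340).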
